A study of Drosophila melanogaster with 12 samples.

Results

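The genes described here encode the machinery that copies DNA in Drosophila melanogaster gonads. A list of 34 replication genes was taken by name and not by a filter on measured values, though with earlier results of these data known. Of the 34, 30 were matched to a gene ID among the 17559 IDs counted in the libraries. RNA was sequenced from 12 libraries in 4 groups of 3: ovaries of bam mutants (bam ovary), testes of bam mutants (bam testis), ovaries with RNAi against mCherry (a fluorescent protein that flies lack, used as the RNAi control) and ovaries with RNAi against Sxl. Gonads came from flies aged 1 to 3 days kept at 25 °C, the females virgin, and each library was made from 200 ng of total RNA of whole gonads. No source used here gives the bam alleles, the driver of the RNAi, or whether the RNAi ovaries also carried a bam mutation. The study asked how the germline differs between the sexes when its differentiation is held back, and what changes in ovaries with less Sxl.

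Replication starts at origins that the origin recognition complex (ORC) marks. Cdc6 and Cdt1 (encoded by dup) load the MCM ring there, geminin blocks that loading once S phase has begun, and Cdc45 and the GINS complex turn the loaded ring into the active helicase. DNA polymerase alpha then lays primers, replication factor C (RFC) loads the PCNA clamp, RPA covers single-stranded DNA, Fen1 trims Okazaki fragments and ribonucleotide reductase supplies deoxynucleotides. The bag of marbles gene, bam, drives germline stem cell daughters out of self-renewal. Without it both gonads fill with dividing undifferentiated germ cells, whereas in a wild-type ovary nurse cells and follicle cells also replicate their DNA without dividing. Sxl is the female switch gene of the germline and the soma.

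Libraries held 16152230 to 25097969 reads assigned to genes, and the replication genes together took 0.271 to 0.375% of them. In the library with its lowest count, a replication gene that was detected at all still had 203 reads. Levels are given as counts per 1000000 assigned reads (CPM) after scaling by TMM over the 12 libraries. Sxl RNA, the check of the knockdown, measured 500.4, 510.7 and 533.9 CPM in mCherry RNAi ovaries, compared with 140.5, 197.8 and 224.2 CPM where Sxl was targeted. It was 2.72-fold lower after the RNAi (log2 fold change -1.44, SE 0.18, adjusted p = 0.0466). Whole gonads were used, so fewer cells of a type and less RNA per cell cannot be told apart in any difference below. Summed germ cell markers (18 genes) lay at 3182 to 3696 CPM in bam ovaries and at 2348 to 3508 CPM in bam testes, and none of them was at 0 in a group. The germ cell markers did not move together: 4 were higher in testes (background 16.4%) and 3 lower (background 16.3%). Sums of somatic markers moved with the sex comparison: 17 somatic gonad markers summed to 1652 to 2521 CPM in bam ovaries and 749.8 to 914.3 CPM in bam testes, and 16 muscle markers to 10010 to 13760 and 1750 to 2150 CPM. The 15 follicle cell genes for yolk and eggshell summed to 6502 to 7520 CPM in bam ovaries and 38.6 to 54.6 CPM in bam testes, 9 fat body markers to 1145 to 1315 and 237.9 to 271.6 CPM, and 8 hemocyte markers to 1208 to 1608 and 740.9 to 871.1 CPM. Lower in testes were 7 of 16 somatic gonad markers tested, 13 of 16 muscle, 10 of 12 follicle cell and 3 of 8 fat body markers (background 16.3%). In the somatic gonad, muscle and fat body lists 1 marker each was higher (background 16.4%). Hemocyte markers did not move together: 2 were lower in testes (background 16.3%) and 1 higher (background 16.4%), with a median log2 fold change of -0.15 over the 7 tested. Among them Pxn averaged 820.5 CPM in bam ovaries and 96.8 CPM in bam testes. The marker crq went the other way, at 222.1 and 371.4 CPM. The part of these cells in the differences below was not tested.

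Some libraries stood apart from the others of their group by a trend on gene length, and the replication genes followed it. Their exons span 692 (Psf1) to 4624 bases (PolA1). In bam testis replicate 2 the log2 level relative to the group mean changed by -0.22 per doubling of exon length over the 29 detected genes (r = -0.79, a description over genes of 1 library), and in bam testis replicate 3 by 0.17. Bam ovary replicate 3 and mCherry RNAi ovary replicate 2 had slopes of -0.16 and -0.18, while the Sxl RNAi ovaries had slopes between -0.03 and 0.04. Short genes such as PCNA were therefore high and the long PolA1 low in bam testis replicate 2: PCNA stood at 468.6, 671.9 and 385.0 CPM in the 3 testes and PolA1 at 116.2, 85.8 and 144.4 CPM. Summed markers of the male accessory gland were also uneven among the testes, at 539.7, 2592 and 223.1 CPM in replicates 1 to 3. What set these trends was not tested, and the results below are also given with the trend removed where that changes a count.

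**Figure D1:**
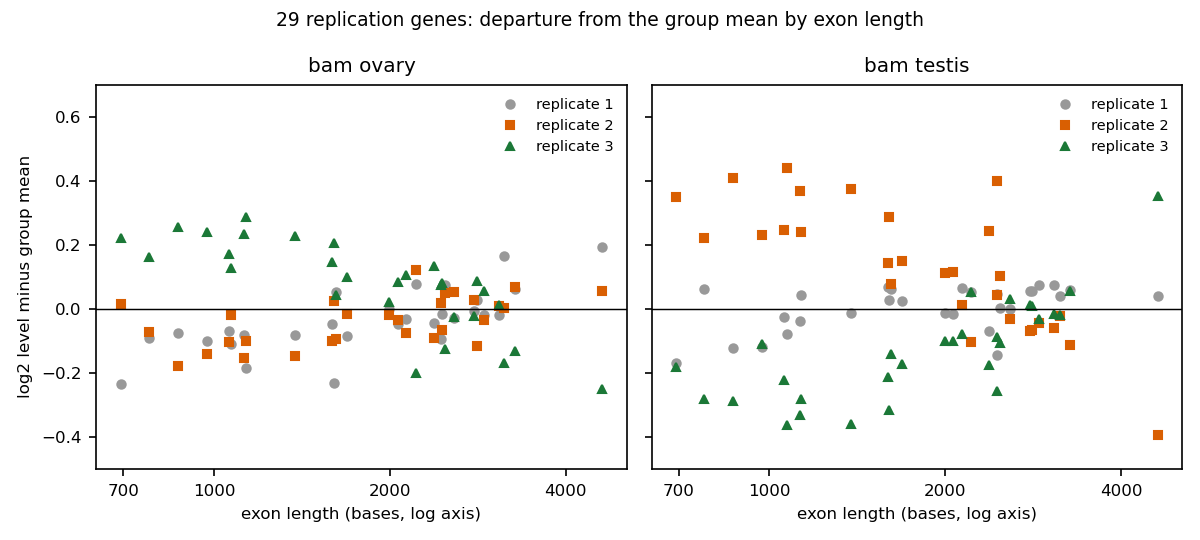
Departure of each of 29 replication genes from its group mean (log2 level, y axis) against its exon length (bases, log x axis) in the 3 bam ovaries and the 3 bam testes. The short genes lie above 0 in testis replicate 2 and ovary replicate 3 and below 0 in testis replicate 3, with slopes per doubling of length of -0.22, -0.16 and 0.17.

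Among the 34 listed genes, 28 matched by symbol, and CDC45L and RpA-70 matched through a synonym in RefSeq as Cdc45 (FBgn0026143) and RPA1 (FBgn0010173). Orc1, Mcm3, RPA2 and RPA3 were not analysed here. Orc3 was counted at 0 reads in all 12 libraries. All 3315 of its exon bases also belong to CG34315, annotated on the same strand and also counted at 0; whether the shared exons account for the zeros was not tested. That leaves 29 genes, which all entered each test below. Exons of 12 of the 30 counted genes, Orc3 included, overlap another gene, and the library kit does not mark strand, so reads from both partners cannot be told apart there. The overlap covers 2003 of 2451 exon bases of Mcm7 (asRNA:CR45871), 831 of 2380 of Psf3 (CG17841), 404 of 1604 of RfC38 (Nup160) and 367 of 2820 of Mcm10 (Ret). Levels of these 4 genes are less certain for that reason.

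The complexes differed in level in the bam ovaries, measured as CPM per kb of exon that no other gene shares. PCNA, the sliding clamp, was the highest at 357.8 ± 29.8 (SD, n = 3), followed by RnrS at 162.5 ± 14.9 and RPA1 at 162.1 ± 10.8, which do not differ beyond their spread. The MCM subunits Mcm2, dpa (which encodes Mcm4), Mcm5 and Mcm6 lay between 74.6 and 109.8. Mcm7 joined them at 80.8 ± 4.87 on this scale and would sit at 14.8 ± 0.889 per kb of all its exons. The overlap was read from an Ensembl annotation of BDGP6, and since the annotation used for counting is not known, which of these values applies cannot be told. RNA of the loading factors was lower than that of Mcm2, dpa, Mcm5 and Mcm6: the 4 detected ORC subunits lay between 22.0 and 27.1 and Cdc6 at 23.2 ± 1.73 CPM per kb. Protein amounts were not measured. The GINS subunits lay between 21.4 and 29.6, Cdc45 at 28.1 ± 3.31 and Mcm10, which works with the helicase as the fork starts, at 19.5 ± 1.40. Geminin was an exception among the licensing genes, at 99.5 ± 10.6 CPM per kb, above its target dup at 31.4 ± 3.64.

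**Figure D2:**
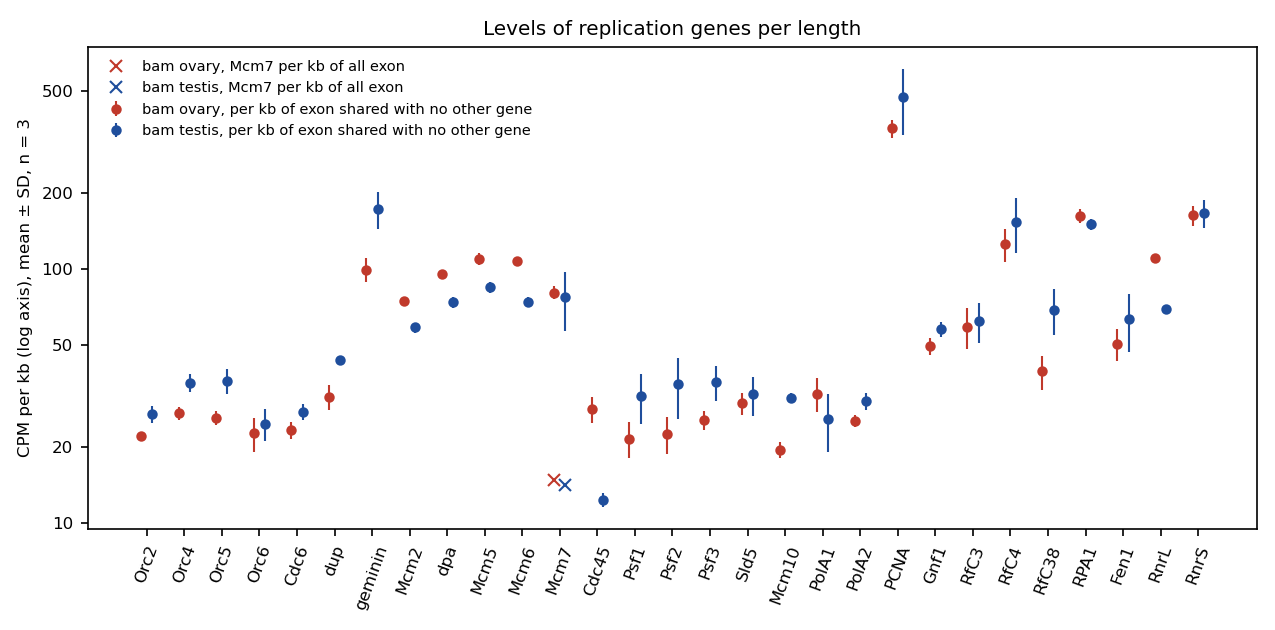
Level per kb of unshared exon (y axis, log scale, mean ± SD of 3 libraries) of 29 replication genes in bam ovaries and bam testes. Crosses show Mcm7 per kb of all its exons. PCNA is the highest gene, at 357.8 CPM per kb in ovaries, and Cdc45 in testes the lowest at 12.4 CPM per kb of unshared exon.

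The first comparison asked which replication genes differ between male and female gonads that share the bam block. In bam testes 7 of 29 genes were higher (geminin, RfC38, Mcm10, Psf3, dup, Orc5 and Orc4) and 3 were lower (Cdc45, RnrL and Mcm6), by edgeR's quasi-likelihood test with Benjamini-Hochberg adjusted p under 0.05 over the 9738 genes tested. The 34.5% called compares with a background of 32.7% of all genes, so replication genes as a set were called about as often as any other. By direction, 24.1% were higher against 16.4% of all genes and 10.3% were lower against 16.3%. The median log2 fold change was 0.23 over the 29 genes and 0.01 over all genes tested. The 3 testes lay above the 3 bam ovaries for 13 genes (background 23.9%) and below them for 6 (background 24.2%).

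The number of calls fell when some single libraries were left out, which also makes a group smaller. Without bam ovary replicate 1, bam ovary replicate 2 or bam testis replicate 1 it was 3, 2 and 3 (20.2%, 19.3% and 20.5% of all genes were then called), while Cdc45 was called each time, RnrL without either ovary, Mcm10 without ovary replicate 1 or testis replicate 1, and geminin without the testis. Calls were also lost without bam ovary replicate 3 (Orc4, dup and Mcm6), bam testis replicate 2 (Orc4, Orc5 and Psf3) and bam testis replicate 3 (dup). With the trend on length removed, 12 genes were higher (background 26.8%) and 4 lower (background 22.6%), and with upper-quartile scaling 4 were higher and 3 lower, where 30.7% of all genes were called.

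**Figure D3:**
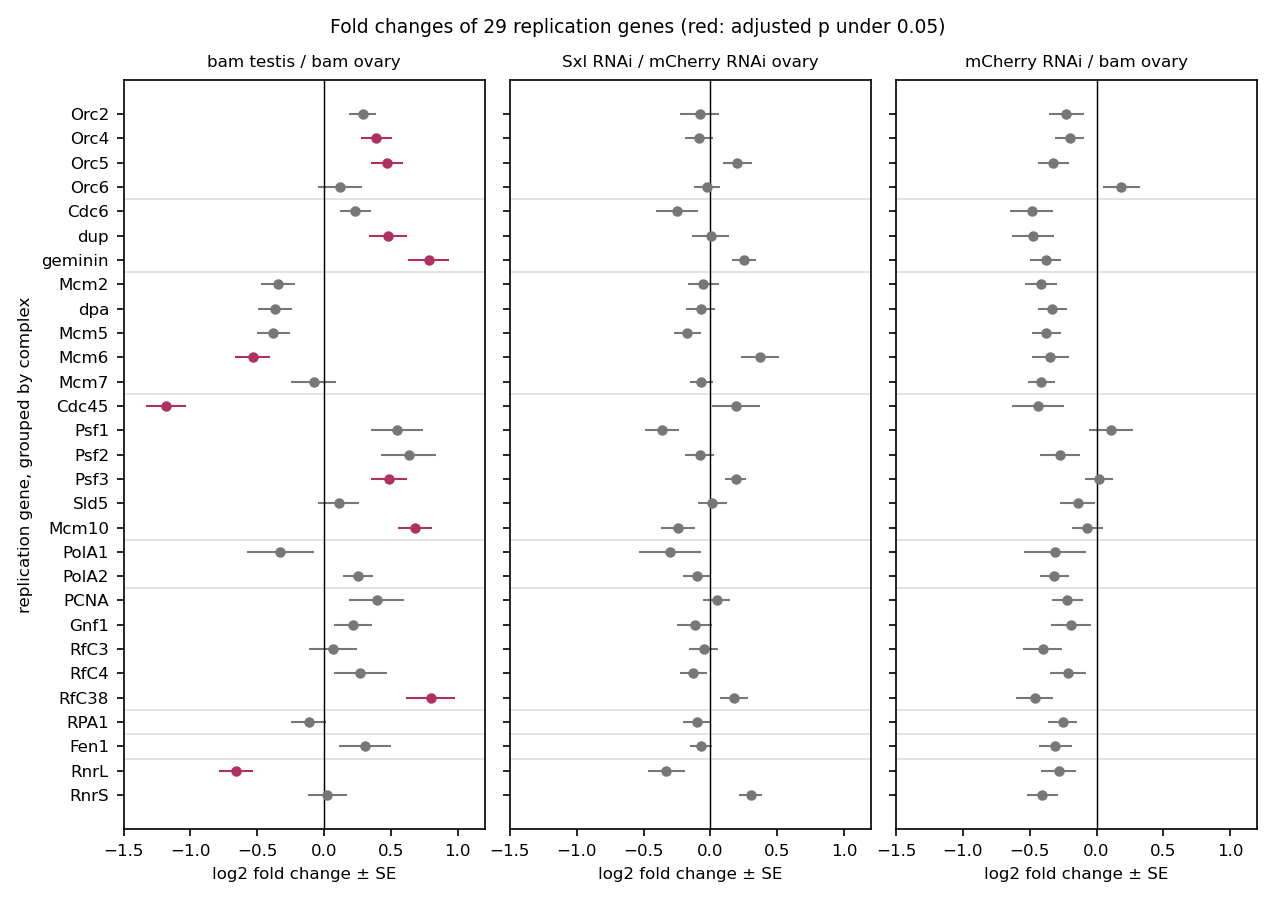
Log2 fold change ± SE (x axis) of 29 replication genes, ordered by complex, in 3 comparisons with 3 libraries a group. In testes the ORC and licensing genes lie above 0 and the MCM genes below 0, Cdc45 is the lowest at -1.18, and no gene passes the adjusted p of 0.05 in the other 2 comparisons.

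Among the genes that mark origins, Orc4 and Orc5 were higher in testes, and Orc2 and Orc6 did not pass the test. All 4 had a log2 fold change above 0. Orc4 stood at 44.3, 40.0 and 44.1 CPM in bam ovaries and at 58.8, 59.3 and 51.0 CPM in bam testes. The groups did not overlap, and the gene was 1.31-fold higher in testes (log2 0.39, SE 0.11, adjusted p = 0.0402). Orc5 stood at 38.9, 40.9 and 44.3 CPM in ovaries and at 58.4, 63.7 and 50.9 CPM in testes, again with no overlap (log2 0.47, SE 0.12, adjusted p = 0.0250). Orc2 had a log2 fold change of 0.29 (adjusted p = 0.0762) with separate groups, and Orc6 one of 0.12 (adjusted p = 0.621) with overlapping ones.

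Both sides of the licensing control were higher in testes. Dup, the fly Cdt1, stood at 104.5, 93.3 and 82.8 CPM in bam ovaries and at 134.2, 128.5 and 128.6 CPM in bam testes. The testes lay close together and above every ovary (log2 0.48, SE 0.14, adjusted p = 0.0416). Geminin, which binds Cdt1 and inhibits it, stood at 100.3, 97.9 and 118.4 CPM in ovaries and at 178.1, 215.2 and 155.2 CPM in testes. This was a 1.72-fold difference (log2 0.78, SE 0.16, adjusted p = 0.0100). Cdc6 had a log2 fold change of 0.23 (adjusted p = 0.174), although its 3 testes, at 63.0 to 72.8 CPM, lay above its 3 ovaries, at 52.6 to 60.5 CPM.

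Of the 5 measured subunits of the MCM helicase, Mcm6 was lower in testes and the other 4 did not pass the test. All 5 had a log2 fold change below 0 against bam ovaries, with a median of -0.37. Mcm6 stood at 298.7, 305.8 and 295.6 CPM in bam ovaries and at 215.5, 197.3 and 209.1 CPM in bam testes. It was 1.45-fold lower in testes, with a wide gap between the groups (log2 -0.53, SE 0.13, adjusted p = 0.0212). Mcm5 stood at 266.0, 257.1 and 284.6 CPM in ovaries and at 214.2, 213.6 and 195.4 CPM in testes. Its groups did not overlap either, but it missed the threshold (log2 -0.38, SE 0.12, adjusted p = 0.0572). The log2 fold changes of dpa and Mcm2 were -0.37 (adjusted p = 0.0688) and -0.35 (adjusted p = 0.0820), both with separate groups. DESeq2 called Mcm2, dpa and Mcm5 lower as well as Mcm6 (background 19.6%). Mcm7, most of whose exon bases overlap an antisense gene, had a log2 fold change of -0.08 (adjusted p = 0.763).

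Cdc45 showed the largest difference of the 29 genes. Its gene lies on chromosome X (BDGP6, 1028291 to 1030556, minus strand). It stood at 65.4, 67.4 and 53.8 CPM in bam ovaries and at 28.4, 25.4 and 28.4 CPM in bam testes. Every testis was below every ovary, and the level was 2.27-fold lower (log2 -1.18, SE 0.15, adjusted p = 0.00149). This call held in each of 15 alternative fits of the comparison, with log2 values from -1.27 to -1.12.

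Cdc45's partners in the active helicase, the GINS subunits, did not share its direction. Psf3 stood at 38.2, 37.0 and 43.3 CPM in ovaries and at 52.7, 65.6 and 49.0 CPM in testes. It was higher in testes (log2 0.49, SE 0.13, adjusted p = 0.0338), although it missed the threshold without ovary replicate 1 or 2 and without testis replicate 1 or 2, with a log2 value of 0.37 in the last case. Psf1 stood at 12.4, 14.9 and 17.2 CPM in ovaries and at 19.1, 27.5 and 18.9 CPM in testes. The groups were separate, but it did not pass the test (log2 0.54, SE 0.19, adjusted p = 0.0762). Psf2 had a log2 fold change of 0.63 (adjusted p = 0.0578) and Sld5 one of 0.11 (adjusted p = 0.639).

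Mcm10, unlike Cdc45, was higher in testes, and its libraries lay close together within each group. Its gene lies on chromosome arm 2L (BDGP6, 21179933 to 21182812, plus strand). It stood at 48.5, 44.0 and 50.7 CPM in bam ovaries and at 79.5, 72.9 and 76.8 CPM in bam testes. The groups lay far apart, with a 1.60-fold difference (log2 0.68, SE 0.13, adjusted p = 0.00802). The call held in 13 of 15 alternative fits and was lost with the replicate block and without bam ovary replicate 2, where the log2 value was 0.62.

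In the clamp, the clamp loader and the polymerase, 1 of 7 genes passed. All 5 clamp and clamp loader genes had log2 fold changes above 0. RfC38, a subunit of the RFC clamp loader, stood at 40.0, 47.9 and 54.3 CPM in bam ovaries and at 83.4, 100.02 and 65.7 CPM in bam testes. The lowest testis was above the highest ovary, at a 1.74-fold difference (log2 0.80, SE 0.18, adjusted p = 0.0170). Gnf1 (the large RFC subunit), RfC3 and RfC4 had log2 fold changes of 0.22, 0.07 and 0.27, and PCNA one of 0.39 (adjusted p = 0.191) with overlapping groups. The polymerase alpha subunits lay on both sides of 0, PolA1 at -0.33 (adjusted p = 0.362) and PolA2 at 0.25 (adjusted p = 0.127). RPA1 (log2 -0.11) and Fen1 (log2 0.31) had overlapping groups.

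The subunits of ribonucleotide reductase differed from each other. RnrL, the large subunit, stood at 278.0, 294.3 and 278.4 CPM in bam ovaries and at 179.4, 175.6 and 183.5 CPM in bam testes. Both groups were tight and far apart, and RnrL was 1.58-fold lower in testes (log2 -0.66, SE 0.13, adjusted p = 0.00853). RnrS, the small subunit, averaged 258.9 ± 23.7 CPM in ovaries and 264.7 ± 33.2 CPM in testes (SD, n = 3), with overlapping groups (log2 0.02, adjusted p = 0.920).

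**Figure D4:**
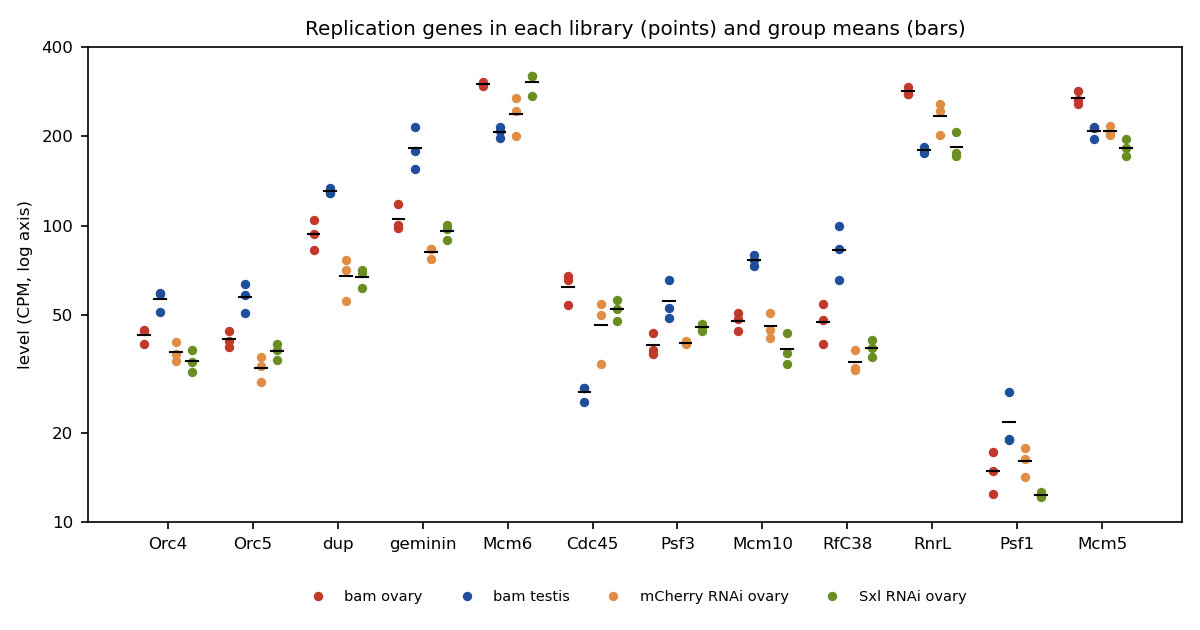
Level of 12 replication genes in each of the 12 libraries (points; y axis in CPM, log scale) with group means (bars). Cdc45 in testes, at 25.4 to 28.4 CPM, lies below all 9 ovaries, and Mcm10 in testes, at 72.9 to 79.5 CPM, above them all.

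Which of these differences set the testes apart from any ovary was read from all 9 ovary libraries, with no test. For 13 of 29 genes the 3 testes lay above all 9 ovaries (background 17.3%): Orc2, Orc4, Orc5, Cdc6, dup, geminin, Psf1, Psf2, Psf3, Mcm10, PolA2, Gnf1 and RfC38. For 1 gene, Cdc45, they lay below all 9 (background 18.7%). The MCM genes and RnrL belong to neither set. Mcm6 in testes, at 197.3 to 215.5 CPM, met the lower end of the ovaries, which ran from 200.1 to 318.6 CPM, and RnrL in testes, at 175.6 to 183.5 CPM, overlapped an ovary range of 171.2 to 294.3 CPM.

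Tests against each RNAi group were added after the data were seen. Against mCherry RNAi ovaries 15 genes were higher in testes (background 20.9%) and 1, Cdc45, was lower (background 20.8%; log2 -0.73, SE 0.20, adjusted p = 0.0236). Against Sxl RNAi ovaries 15 were higher (background 20.1%) and 2 were lower (background 21.0%), Cdc45 (log2 -0.95, adjusted p = 0.00141) and Mcm6 (log2 -0.57, adjusted p = 0.0150). Against mCherry RNAi ovaries Mcm2, dpa, Mcm5 and Mcm6 had log2 fold changes of 0.08, -0.02, 0.01 and -0.17. The sign of the log2 fold changes of Mcm2, Mcm5 and Mcm7 thus differed between bam and RNAi ovaries as the reference, and that of Mcm6 did not. Of the genes above all 9 ovaries, Psf1 and Gnf1 did not pass against mCherry RNAi ovaries (adjusted p = 0.0871 and 0.0828), nor Psf3 against Sxl RNAi ovaries (adjusted p = 0.167). These comparisons share the 3 testes with the first one.

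**Figure D5:**
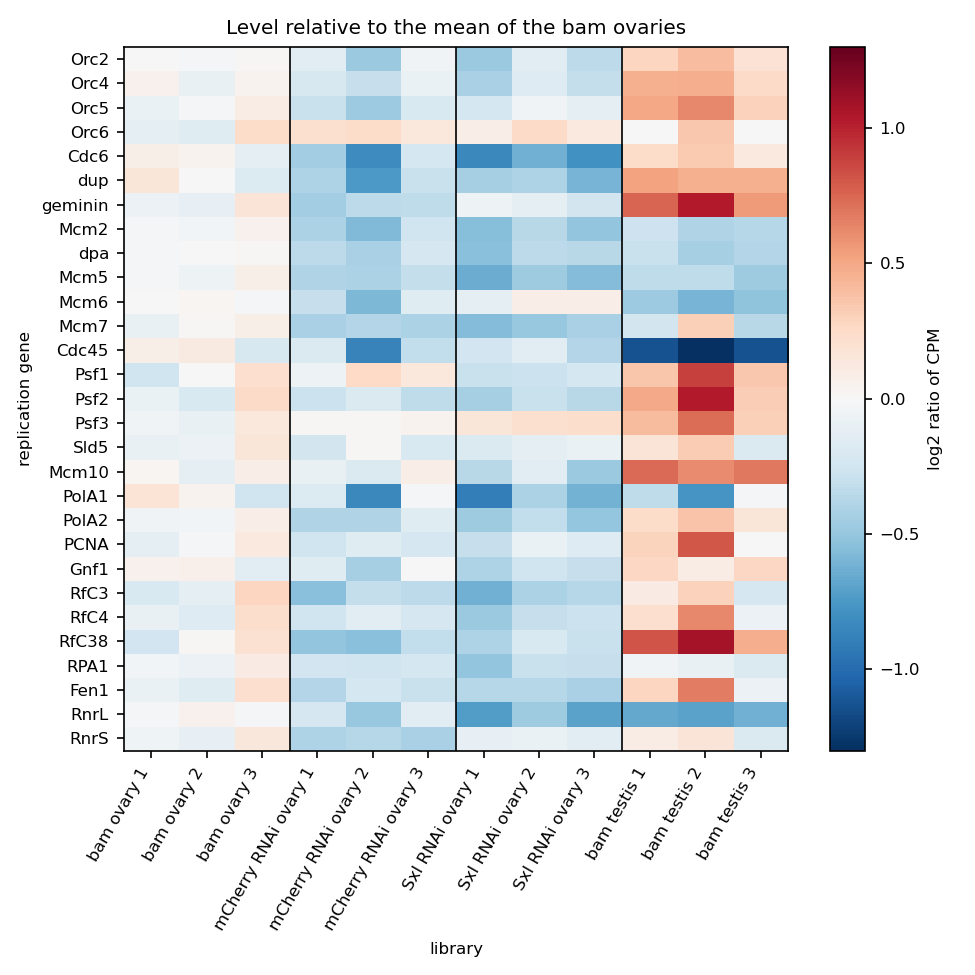
Log2 ratio of the level of 29 replication genes (rows) in each of 12 libraries (columns) to the mean of the bam ovaries. The testes are high for 13 genes and low for Cdc45, while the RNAi ovaries are below the bam ovaries for most genes, with a median log2 fold change of -0.31 in the mCherry RNAi group.

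The second comparison asked whether loss of Sxl in ovaries changes these genes. None of 29 passed the test in Sxl RNAi ovaries against mCherry RNAi ovaries, where 0.209% of 10059 genes did. At an unadjusted p under 0.05 there were 6 replication genes, or 20.7% against 11.7% of all genes, and DESeq2 called 1, RnrS (background 1.69% higher; log2 0.29, adjusted p = 0.00234). The fitted log2 fold changes ran from -0.36 (Psf1) to 0.37 (Mcm6), with SEs of 0.078 to 0.23. A change of the size of Cdc45's in testes was thus not seen in any of them, while smaller changes, within a few SEs of the fitted values, could go undetected at 3 libraries a group. The median was -0.07, beside 0.01 over all genes.

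Single genes still separated the RNAi groups. The Sxl RNAi libraries lay above the mCherry RNAi libraries for geminin, Mcm6, Psf3 and RnrS (background 8.5%) and below them for Mcm5, Psf1, RfC4 and RPA1 (background 9.64%). Mcm6 stood at 243.2, 200.1 and 268.3 CPM after mCherry RNAi and at 274.0, 318.5 and 318.6 CPM after Sxl RNAi (log2 0.37, SE 0.14, adjusted p = 0.372). Psf1 stood at 14.2, 17.7 and 16.3 CPM and at 12.2, 12.2 and 12.7 CPM (log2 -0.36, SE 0.12, adjusted p = 0.334). RnrS stood at 195.8, 200.5 and 193.1 CPM and at 239.9, 244.0 and 234.7 CPM (log2 0.30, SE 0.09, adjusted p = 0.255). Cdc45, at 54.5, 34.1 and 49.99 CPM and at 52.4, 56.3 and 47.9 CPM, overlapped (log2 0.19, SE 0.18, adjusted p = 0.774). So did Mcm10, at 44.6, 41.9 and 50.7 CPM and at 37.2, 43.5 and 34.1 CPM (log2 -0.24, SE 0.13, adjusted p = 0.534), and RnrL, at 243.6, 202.2 and 256.6 CPM and at 171.2, 206.5 and 175.6 CPM (log2 -0.33, SE 0.14, adjusted p = 0.421).

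None of the remaining genes named above passed the test between the RNAi groups either. Geminin ran from 77.4 to 83.7 CPM in mCherry RNAi and from 89.2 to 100.8 CPM in Sxl RNAi ovaries, and Psf3 from 39.8 to 40.8 and from 44.2 to 46.4 CPM. Dup ran from 55.9 to 76.7 and from 61.5 to 70.6 CPM, Orc4 from 34.9 to 40.4 and from 32.1 to 38.0 CPM, and Orc5 from 29.8 to 36.1 and from 35.2 to 40.0 CPM. RfC38 ran from 32.5 to 38.0 and from 36.0 to 41.3 CPM, and Mcm5 from 202.6 to 217.5 and from 171.9 to 195.6 CPM. Of these, geminin, Psf3 and Mcm5 had separate groups and the others overlapped.

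The control ovaries also differed from each other in level. Between mCherry RNAi and bam ovaries no replication gene passed edgeR's test (background 6.11%), but 14 of 29 had an unadjusted p under 0.05 (background 23.1%) and DESeq2 called 7 lower (background 5.22%): Mcm2, dpa, Mcm5, Mcm7, geminin, RfC38 and RnrS. For 26 of 29 the log2 fold change was below 0, compared with 50.7% of all genes, and the median was -0.31 beside -0.01. The mCherry RNAi libraries lay below the bam ovaries for 18 genes (background 14.4%) and above them for none (background 16.9%). All 5 MCM genes were among the 18, with log2 values from -0.41 (Mcm2) to -0.33 (dpa), as were the 3 licensing genes. Orc6, Psf1 and Psf3 were the 3 genes above 0.

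Summed markers of other cell types differed in this comparison. Summed muscle markers were at 14480 to 18520 CPM in mCherry RNAi and 10010 to 13760 CPM in bam ovaries, and 15 follicle cell genes for yolk and eggshell at 4342 to 5694 and 6502 to 7520 CPM. Fat body sums were at 396.9 to 713.1 and 1145 to 1315 CPM, and hemocyte sums at 1951 to 2079 and 1208 to 1608 CPM. The fat body sum in bam ovaries was mostly 1 gene, Tsf1, which averaged 194.1 CPM in mCherry RNAi and 1078 CPM in bam ovaries. Over the 8 fat body markers tested the median log2 fold change was 0.40, opposite in direction to the sum. Germ cell and somatic gonad sums overlapped. No muscle marker was called. Of the follicle cell genes 1 was higher and 3 lower, of the fat body markers 1 was lower, and of the hemocyte markers 1 was higher and 2 lower (background 3.78% higher and 2.32% lower). The part of these cells in the difference was not tested. With the length trend removed 10 genes were called lower (background 6.45%), and 10 also without bam ovary replicate 3 and mCherry RNAi ovary replicate 2 (background 9.02%). This comparison shares the bam ovaries with the sex comparison and the mCherry RNAi ovaries with the Sxl comparison.

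Whether a gene's difference between testes and bam ovaries was unlike its difference between Sxl RNAi and mCherry RNAi ovaries was tested in 1 fit to all 12 libraries. The effects differed for 5 of 29 genes, or 17.2% beside a background of 25.6% of 10382 genes. The sex effect was below the Sxl effect for Cdc45 (by a log2 of -1.36, SE 0.24, adjusted p = 0.00146) and Mcm6 (-0.89, SE 0.18, adjusted p = 0.00363). It was above the Sxl effect for Mcm10 (0.94, SE 0.17, adjusted p = 0.00183), Psf1 (0.93, SE 0.25, adjusted p = 0.0189) and Orc4 (0.50, SE 0.15, adjusted p = 0.0355). For RnrL, lower in testes and at -0.33 after Sxl RNAi, the difference was -0.32 (SE 0.17, adjusted p = 0.205). The count was 3 without bam ovary replicate 1, where 20.4% of all genes were called, and 9 without bam testis replicate 3, where 30.3% were.

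Of the 3 X-linked genes among the 29, Cdc45 and Mcm6 were lower in testes and Psf3 was higher. Over all 1656 X-linked genes tested, 28.5% were lower and 11.4% higher. The 7 genes that were higher had exon lengths of 1061 to 3138 bases (median 1687) and the 3 that were lower of 2214 to 2790 bases (median 2577).

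Other genes of DNA replication were counted from wider lists, to be read against 16.4% of all genes higher in testes and 16.3% lower. These shares are over all chromosomes. Among X-linked genes 11.4% were higher and 28.5% lower, and the lists were not split by chromosome. Of 22 other fork genes none was higher in testes and 3 were lower: mus101 (TopBP1; log2 -1.05), Cdc7 (the kinase that starts the loaded helicase; log2 -0.94) and DNAlig1 (which seals Okazaki fragments; log2 -0.45), with a list median of -0.12 beside 0.01 over all genes. Cdc7 averaged 59.2 ± 8.39 CPM in bam ovaries and 30.8 ± 5.88 CPM in bam testes (SD, n = 3; adjusted p = 0.0154). Of 20 S phase regulators 3 were higher, Cdk2 (log2 0.52), Rbf2 (0.52) and Rbf (0.61), and Myb was lower (-0.63). The first is the kinase of cyclin E and the Rbf genes encode the fly retinoblastoma proteins.

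The shares of 16.4% higher and 16.3% lower over all genes apply to the next lists too. Of 12 checkpoint genes p53 was higher (log2 1.76, adjusted p = 0.000233) and lok, the fly Chk2, lower (log2 -0.78, adjusted p = 0.0147). Ssrp, a subunit of the histone chaperone FACT, was the 1 of 9 chromatin assembly genes called (log2 0.55), and none of 5 tested deoxynucleotide genes was called. Of 30 mitotic genes 2 were higher and 5 lower, with cid, the centromere histone, at log2 1.05 and feo, CycB and fzy at -0.89, -0.69 and -0.60. None of these genes passed the test after Sxl RNAi. Between mCherry RNAi and bam ovaries 1 did, in the deoxynucleotide list.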

How the data were processed

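RNA-seq was made from 12 gonad libraries with the TruSeq RNA v2 kit, per the labels' protocols, which do not say that strand was marked. The deposited values are raw read counts per gene ID. The submitters' processing notes name FastQC, Bowtie2 2.2.9, TopHat2 2.1.1, HTSeq 0.9.1, DESeq and the build BDGP6; no source used here gives the annotation release. The 5 summary lines of each file, 12.0 to 17.1% of its total, entered neither library sizes nor tests. Symbols, positions and exon lengths came from RefSeq tables and Ensembl release 115 on BDGP6: 17253 of 17559 IDs had a symbol.

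Counts were fitted with edgeR 4.0.16 (R 4.3.3; TMM scaling, filterByExpr, robust quasi-likelihood F test, Benjamini-Hochberg adjustment over all genes tested, threshold 0.05), 6 libraries per comparison and 12 for the test between effects. DESeq2 1.42.0 and other scalings, filters and left-out libraries were alternatives, and the procedure was tested on simulated data. The trend on exon length was a loess (span 0.5) of each library's log2 level, used as an offset. Nothing says that replicates were separate cultures or crosses, so p-values measure the spread between these libraries. No replicate pair agreed within counting noise (lowest chi-square per degree of freedom 9.32). The replication genes, lists and tests were chosen with earlier results of these data known. Values in every library were given for 12 genes: those called in the sex, Sxl or control ovary comparison or in the test between effects, and the next by p in the sex comparison. PCNA, PolA1 and RnrS were added after their values were seen. Up to 4 called genes of each wider list were named; of 229 list entries 217 had a counted ID, after aliases that pointed to another gene were corrected. A planned search of promoters for motifs was not run, since no sequence was used here.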

Additional observations from a re-analysis of the deposited data

Results flagged for a closer look

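For 5 replication genes the difference between bam testes and bam ovaries was unlike the difference between Sxl RNAi and mCherry RNAi ovaries, by a test of the difference itself in 1 fit to all 12 libraries. These were 17.2% of the 29 genes, a smaller share than the 25.6% called over all 10382 genes tested. For Cdc45 (listed as CDC45L) the sex effect minus the Sxl effect was -1.36 on the log2 scale, from -1.18 between the sexes and 0.19 after Sxl RNAi in the separate fits. For Mcm6 it was -0.89, from -0.53 and 0.37. For Mcm10 it was 0.94, from 0.68 and -0.24, and for Psf1 it was 0.93, from 0.54 and -0.36. For Orc4 it was 0.50, from 0.39 and -0.09. Cdc45, Mcm6 and Mcm10 were called in each of 20 alternative fits, Psf1 in 19 of 20, with the exception of the fit without bam ovary replicate 1, and Orc4 in 6 of 20.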

How the results depend on the processing

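Of the 29 genes, 10 were called between bam testes and bam ovaries. This became 1 with the replicate number as a block, 16 with the length trend removed, 16 against mCherry RNAi ovaries, 17 against Sxl RNAi ovaries and 1 at an absolute log2 fold change over 1. Leaving out 1 library at a time gave 2 to 10. Over all genes the share called was 32.7%, 17.4% with the block and 49.4% with the trend removed. It was 41.7% against mCherry RNAi ovaries and 41.1% against Sxl RNAi ovaries. No share over all genes is given for the rule on fold change. The Sxl count of 0 became 1 with DESeq2. The count of 0 between mCherry RNAi and bam ovaries became 7 with DESeq2, 10 with the trend removed and 10 without 1 library per group. The 5 genes whose effects differed became 9 with DESeq2, 12 with the trend removed, 9 without 1 library per group (over all genes 25.6% became 30.4%, 36.6% and 31.4%), 1 at an absolute log2 fold change over 1, and 3 to 9 leaving out 1 library at a time. The median of 0.23 between the sexes became 0.48 against mCherry RNAi ovaries and 0.52 against Sxl RNAi ovaries. Against mCherry RNAi ovaries 6 of 29 log2 values changed sign and against Sxl RNAi ovaries 7: Mcm5 (0.0098 and 0.16), Mcm2, Mcm7, Orc6, PolA1 and RPA1 in both and dpa against Sxl RNAi, none of them called. The cause of these changes was not tested. The length trend, the settings without 1 library per group and the other reference ovaries were chosen after seeing the data.

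Same-numbered libraries did not deviate together: the correlations of their deviations were 0.04, -0.35 and -0.56 in the sex comparison. The deviations include the trend on length, so a weaker pairing could not be seen this way. With the replicate block Cdc45 was the gene called between the sexes, the counts stayed at 0 in both ovary comparisons, and 4 genes were called in the test between effects. At 3 libraries a group, each call between the sexes except Cdc45 was lost in at least 1 fit without a single library. Cdc45 was called in every fit run. Leaving out a library also makes its group smaller, and these effects on the calls cannot be told apart. The log2 fold changes of the 10 called genes kept their sign in all 15 alternative fits.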

Other observations

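Ratios within a library do not depend on the scaling between libraries, and were chosen after the values were seen. They are given with no test. Ratios of genes of unlike exon length, such as RnrL (2577 bases) and RnrS (1593 bases), can still carry the trend on length. Bam ovary replicate 3, bam testis replicate 2 and mCherry RNAi ovary replicate 2 had the steepest negative slopes on length. Each was the lowest of its group for RnrL over RnrS and for Cdc45 over the GINS genes. RnrL over RnrS, the large over the small subunit of ribonucleotide reductase, was 1.11, 1.22 and 0.974 in the bam ovaries, and 1.24, 1.01 and 1.33 after mCherry RNAi. It was 0.714, 0.846 and 0.748 in Sxl RNAi ovaries and 0.649, 0.604 and 0.807 in bam testes. The Sxl RNAi ovaries and the testes thus overlapped with each other and lay below every control ovary. Neither subunit passed edgeR's test after Sxl RNAi.

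Cdc45 over the mean of the 4 GINS genes was 2.90, 2.98 and 1.97 in the bam ovaries but 0.911, 0.629 and 1.01 in the testes, and ran from 1.40 to 2.43 in the RNAi ovaries. Mcm10 over the mean of Mcm2, dpa, Mcm5 and Mcm6 was 0.182, 0.165 and 0.184 in the bam ovaries but 0.375, 0.367 and 0.386 in the testes, and ran from 0.155 to 0.221 in the RNAi ovaries. The mean of 4 ORC genes over the same MCM mean was 0.133 to 0.143 in bam ovaries, 0.216 to 0.261 in bam testes and 0.147 to 0.159 in the RNAi ovaries. In each of these 3 ratios the testes lay outside the range of all 9 ovaries. Geminin over dup overlapped between the groups, at 0.960 to 1.43 in bam ovaries and 1.21 to 1.67 in bam testes.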
